A study of Mus musculus with 8 samples.

Results

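Metabotropic glutamate receptors are G protein-coupled receptors that convert released glutamate into slow changes of neuronal and glial signaling. They fall into 3 groups. The group I receptor encoded by Grm5 couples to Gq and phospholipase C and is held at the postsynaptic side by Homer and Shank scaffolds. The group II receptors, encoded by Grm2 and Grm3, and the group III receptors, encoded by Grm4, Grm7, and Grm8, couple to Gi/o proteins and lower cAMP. Many of them sit on axon terminals, where they limit transmitter release, and Grm3 is also a receptor of glia. In the striatum, glutamate from cortical axons reaches medium spiny neurons (MSNs) of the direct pathway, which carry dopamine D1 receptors, and of the indirect pathway, which carry D2 receptors.

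These 6 genes were chosen by name, and all 6 were found among the 31053 genes of the single-cell RNA sequencing matrices of 8 mouse libraries. The libraries were made from the prefrontal cortex (PFC) and the striatum of male C57BL/6N mice, and each tissue has 4 libraries, 2 from wild-type (WT) littermates and 2 from Setd1a+/- mice, with 2 mice pooled in a library. The Setd1a+/- mice are heterozygous for a small CRISPR-Cas9 frameshift deletion ahead of the exons for the catalytic SET domain of this H3K4 methyltransferase. The mutation is constitutive and the line rests on a single mutant allele. Per the methods, the line was made in B6D2F1 zygotes and its founders were then backcrossed to C57BL/6N mice. The labels name the striatal tissue as NAc (nucleus accumbens) and the text of the study as dorsal and ventral striatum. The labels also give an age of 8 to 10 weeks where the methods give another. The question of the study was which cell types change their expression when Setd1a is heterozygous, and the question here is where the receptors were expressed and whether their levels differed between genotypes, tissues, and cell types.

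Across the libraries, 1508 to 4361 cells were annotated, with medians of 2302.5 to 3042 unique molecular identifiers (UMIs) per cell, in 8 cell types of the PFC, 10 of the striatum, and 7 subtypes of PFC excitatory neurons. Levels are given as CPM, a gene's share of the UMIs that a library holds in one cell type, scaled to a common total. They are compared within a gene and not between genes. Of up to 3 marker genes per type, 23 of 23 were highest in their own type in the PFC and 28 of 30 in the striatum. The other two, Gad2 and Slc32a1, which mark GABA neurons in general, were higher in D1 MSNs than in striatal interneurons. The striatal interneuron group also held markers of excitatory neurons (Slc17a7 and Neurod6), with a summed level of 352, 312, 229, and 257 CPM against at most 10.6 CPM in the other striatal types, and their part in the striatal interneuron values was not tested. Libraries of a tissue shared between 1 and 24 cell barcodes. Setd1a levels ran from 5.59 to 11.2 CPM in the PFC and from 9.16 to 15.2 CPM in the striatum, and the genotypes overlapped in the PFC. UMIs do not read the deletion, so these levels do not check the genotype. Where 4 values are given in a row, they are WT replicate 1, WT replicate 2, Setd1a+/- replicate 1, and Setd1a+/- replicate 2.

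The 2 group II genes lie on different chromosomes. Grm2 (ENSMUSG00000023192) is a gene of 13.0 kb on chromosome 9 of GRCm38 from 106643095 to 106656082, and Grm3 (ENSMUSG00000003974) is a gene of 240 kb on chromosome 5 from 9485541 to 9725170, both on the minus strand. Setd1a-type methyltransferases act at promoters, many of which are rich in CpG, so the RefSeq (GRCm38.p6) windows of 300 bases around the RefSeq starts of this pair are shown, at chr9:106656060-106656359 for Grm2 and chr5:9725303-9725602 for Grm3, minus strand, 5′ to 3′, with each CpG in capitals. The gene positions are those of GENCODE, and the RefSeq window of Grm3 lies outside the GENCODE gene, 133 bases past its higher coordinate. On the minus strand that coordinate is the 5′ end of the gene, so the window lies upstream of it.
Grm2: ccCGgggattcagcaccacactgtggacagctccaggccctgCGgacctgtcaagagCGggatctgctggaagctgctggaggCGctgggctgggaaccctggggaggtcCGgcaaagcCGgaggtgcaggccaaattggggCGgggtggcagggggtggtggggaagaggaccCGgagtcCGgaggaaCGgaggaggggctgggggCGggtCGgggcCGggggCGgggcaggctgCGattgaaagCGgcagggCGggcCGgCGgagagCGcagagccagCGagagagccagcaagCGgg
Grm3: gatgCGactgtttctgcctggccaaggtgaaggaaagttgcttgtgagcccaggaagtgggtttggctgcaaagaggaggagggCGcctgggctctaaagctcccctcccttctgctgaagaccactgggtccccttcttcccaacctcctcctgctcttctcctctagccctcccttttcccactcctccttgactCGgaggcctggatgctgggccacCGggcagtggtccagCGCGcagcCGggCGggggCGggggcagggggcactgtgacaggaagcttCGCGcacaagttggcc
The window of Grm2 held 22 CpGs, a count reached by 23.1% of the 32851 windows of the table, and that of Grm3 held 11, reached by 41.4%. CG reads the same on both strands. Windows were found for 4 of the 6 genes. The 2 windows of Grm7 held 10 and 15 CpGs and the 3 windows of Grm8 held 33, 10, and 2. The other genes lie on chromosome 17 from 27422387 to 27521403 (Grm4, ENSMUSG00000063239, minus strand), chromosome 7 from 87584168 to 88134907 (Grm5, ENSMUSG00000049583, plus strand), chromosome 6 from 110645581 to 111567230 (Grm7, ENSMUSG00000056755, plus strand), and chromosome 6 from 27275119 to 28135178 (Grm8, ENSMUSG00000024211, minus strand).

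Grm5, the group I receptor, was found in excitatory neurons, interneurons, and MSNs, and in oligodendrocyte progenitor cells (OPCs). Neural stem cells and neuroblasts had its lowest mean of the striatal types, 23.7 ± 11.2 CPM (SD, n = 4 libraries). In PFC excitatory neurons it was counted at 280, 270, 287, and 299 CPM, and in PFC interneurons at 320, 351, 293, and 295 CPM. These ranges overlapped. In the striatum it was 362, 380, 340, and 410 CPM in D1 MSNs and 375, 411, 384, and 405 CPM in D2 MSNs, above the 226 to 321 CPM of striatal interneurons in each of the 4 libraries. At least 1 UMI was found in 74.0% of 2775 PFC excitatory neurons (95% Wilson interval 72.3 to 75.6%), 63.1% of 3904 D1 MSNs (61.6 to 64.6%), and 70.1% of 2451 D2 MSNs (68.2 to 71.8%), against 0.896% of PFC endothelial cells, whose median depth was 2368 UMIs. In the striatum, non-neuronal cells held the gene more often, in 7.21% of endothelial cells and 24.4% of microglia at median depths of 2379 and 2285 UMIs, values taken up with the empty droplets. MSNs held fewer UMIs than excitatory neurons, with medians of 3167 and 3422 against 6546 per cell. After every cell was thinned to 1000 UMIs, the shares were 24.7%, 29.4%, and 33.3%. Such intervals and shares cover counting error only and not the spread between mice.

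In the PFC, OPCs stood apart from astrocytes and oligodendrocytes in Grm5. The gene was counted at 127, 119, 103, and 182 CPM in PFC OPCs and at 107, 140, 132, and 160 CPM in striatal OPCs, against at most 25.7 CPM in PFC astrocytes and at most 19.7 CPM in PFC oligodendrocytes. In the striatum the library ranges of microglia (93.7 to 253 CPM) and OPCs overlapped, and astrocytes reached 106 CPM. Grm5 was found in 18.9% of 1337 PFC OPCs and 18.7% of 1441 striatal OPCs, at median depths of 1651 and 1625 UMIs, and in 2.71% of PFC astrocytes, which were deeper at 2026 UMIs. Newly formed oligodendrocytes, the stage after OPCs, had 28.8 ± 19.3 CPM in the PFC and 41.1 ± 29.8 CPM in the striatum (SD, n = 4 libraries). Thus the level was lower at each later stage of the lineage in the PFC, with 133 ± 34.5 CPM in OPCs and 10.4 ± 7.10 CPM in oligodendrocytes at its ends, although the library ranges of newly formed and mature oligodendrocytes overlapped.

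Grm2, a group II autoreceptor, was a gene of PFC excitatory neurons. It was counted there at 16.4, 26.6, 13.3, and 30.6 CPM, from 423 UMIs in all, and the replicate 2 library was above the replicate 1 library in both genotypes. In PFC interneurons it had 0 UMIs in all 4 libraries, which allows up to 1.87 CPM over these libraries together, so excitatory neurons were at least 11.6-fold higher. It was found in 12.6% of excitatory neurons and in 0 of 298 interneurons, with median depths of 6546 and 5204 UMIs. The count of 0 allows a share of up to 1.01% of interneurons with a UMI at this depth and sets no limit on interneurons that express the gene. In MSNs Grm2 was nearly absent, with 0.882 ± 0.455 CPM in D1 and 0.195 ± 0.391 CPM in D2 neurons. Striatal interneurons had 4.30 ± 3.04 CPM (SD, n = 4 libraries), from 16 of 821 cells. The highest striatal mean was that of microglia, but it rested on 3 UMIs in all.

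Grm3, the other group II gene, was highest in astrocytes. It was counted at 304, 202, 68.4, and 236 CPM in PFC astrocytes and at 146, 139, 128, and 53.1 CPM in striatal astrocytes. Mature oligodendrocytes were second in both tissues, with 134, 118, 39.5, and 100 CPM in the PFC and 81.8, 70.2, 84.3, and 44.1 CPM in the striatum, below astrocytes of the same library in 8 of 8 libraries. PFC excitatory neurons followed, with 56.7, 59.5, 23.5, and 69.8 CPM, and then the MSNs, with 19.4 ± 2.83 CPM in D1 and 23.0 ± 3.68 CPM in D2 neurons. Empty droplets of the striatal libraries, barcodes with free RNA, held 14.7 to 16.6 CPM of Grm3, against 17.0 to 28.4 CPM in MSNs. The gene was low in the precursors of oligodendrocytes. OPCs had 7.27 ± 6.16 CPM in the PFC and 6.25 ± 2.74 CPM in the striatum, and newly formed oligodendrocytes 2.24 ± 4.48 and 2.79 ± 3.22 CPM (SD, n = 4 libraries). At least 1 UMI was found in 35.2% of PFC astrocytes, 21.7% of PFC oligodendrocytes, and 1.12% of PFC OPCs, at median depths of 2026, 2056, and 1651 UMIs. The Setd1a+/- replicate 1 library of the PFC was the lowest of the 4 in astrocytes, oligodendrocytes, and excitatory neurons, a pattern taken up with the genotypes.

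Grm4, a group III receptor, had its highest levels in MSNs. D1 MSNs had 40.6, 32.1, 34.5, and 29.7 CPM and D2 MSNs had 42.2, 38.4, 32.8, and 31.2 CPM, ranges that overlapped. Striatal interneurons were lower in every library, at 8.94 ± 2.69 CPM, and PFC excitatory neurons had 7.41 ± 2.55 CPM (SD, n = 4 libraries). The gene was found in 10.6% of D1 and 12.0% of D2 MSNs and in 4.61% of PFC excitatory neurons, which were the deeper cells, and in 0.426% of striatal oligodendrocytes, a type taken as background. The median depths were 3167 UMIs in D1 MSNs, 3422 UMIs in D2 MSNs, and 2076 UMIs in striatal oligodendrocytes. In empty droplets of the striatal libraries, barcodes that hold 1 to 100 UMIs of free RNA, Grm4 was at 38.1, 39.5, 32.3, and 40.3 CPM. D1 and D2 MSNs were each above that level in both replicate 1 libraries and below it in both replicate 2 libraries, and the mean of 15.0 CPM in striatal microglia was below it.

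Grm7, a presynaptic group III receptor, was counted at 56.2, 47.1, 62.4, and 55.9 CPM in PFC excitatory neurons, at 58.5, 52.4, 59.0, and 42.6 CPM in D1 MSNs, and at 52.2, 45.5, 54.7, and 43.7 CPM in D2 MSNs. In both tissues these neurons were above the interneurons in every library, which had 29.9 ± 3.48 CPM in the PFC and 20.7 ± 3.88 CPM in the striatum (SD, n = 4 libraries). Among the glia of the PFC, the highest mean was 11.3 ± 2.02 CPM in OPCs. In the striatum, microglia had 19.7 ± 12.5 CPM, from 16 UMIs in all, and endothelial cells 15.9 ± 6.09 CPM. Both ranges overlapped with that of striatal interneurons. Empty droplets held 30.7, 36.3, 28.8, and 36.0 CPM of Grm7 in the striatum, above the interneurons and below the MSNs of every library. In the PFC they held 15.7, 23.5, 35.0, and 26.6 CPM, against 34.3, 27.9, 31.1, and 26.5 CPM in interneurons.

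Grm8, also of group III, was found mainly in PFC excitatory neurons. They had 40.8, 23.8, 21.2, and 23.6 CPM, against 3.81 ± 1.47 CPM in PFC interneurons. In the striatum the order was the opposite. Interneurons had 11.4, 10.7, 8.62, and 5.66 CPM, from 41 UMIs, while D1 MSNs had 2.57 ± 1.67 CPM and D2 MSNs 0.339 ± 0.412 CPM, the latter from 3 UMIs in all (SD, n = 4 libraries). Interneurons were above D1 MSNs in 4 of 4 libraries and their ranges did not overlap, but the striatal interneuron group also held excitatory markers, as given above. The plot of levels by cell type shows these patterns with every library.

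**Figure D1:**
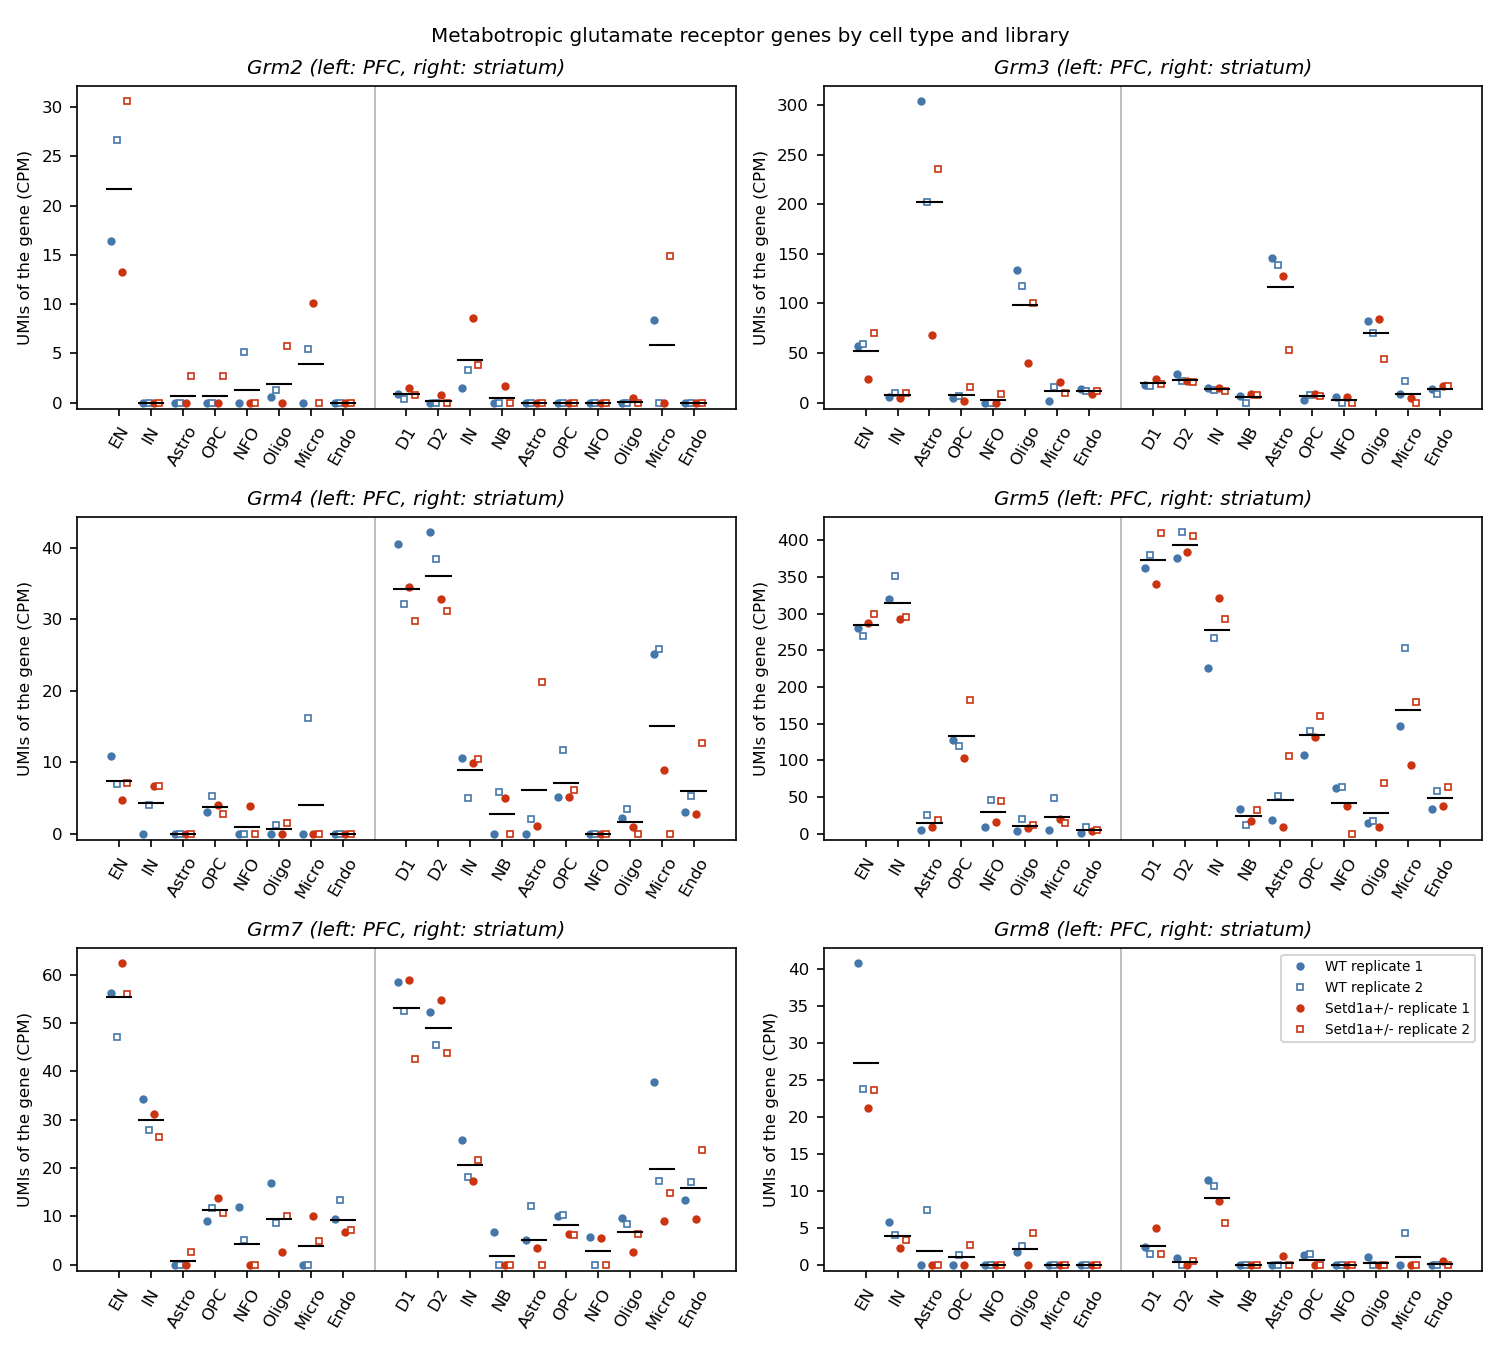
Level of each receptor gene (CPM, linear axis) in the annotated cell types of the PFC (left of the line) and the striatum (right). Points are libraries (blue, WT; red, Setd1a+/-; circles, replicate 1; open squares, replicate 2) and bars are means of 4 libraries. Grm5 is high in excitatory neurons, interneurons, MSNs, and OPCs, and in the striatum its mean in microglia is above that in OPCs. Grm3 is high in astrocytes and oligodendrocytes, Grm4 in MSNs, and Grm2 and Grm8 in PFC excitatory neurons. EN, excitatory neurons; IN, interneurons; Astro, astrocytes; NFO, newly formed oligodendrocytes; Oligo, oligodendrocytes; Micro, microglia; Endo, endothelial cells; NB, neural stem cells and neuroblasts.

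To describe which genes had patterns like those of the receptors, mean log2(CPM + 1) was correlated over the 18 cell types of both tissues among 13342 genes with at least 10 CPM in some type. The points share libraries and tissue dissections, and the values are a description. Grm5 was most like Tceal6 (r = 0.99), Caly (0.98), and Rasgrf1 (0.98). Grm3 was most like Clmn (0.91), Prnp (0.84), and Hhatl (0.83), and Grm2 most like Aldh3b2 (0.84), Sstr3 (0.82), and Blnk (0.81). Of the group III genes, Grm4 was most like Ryr3 (0.95), B4galnt1 (0.94), and Zmym3 (0.91), and Grm8 most like Doc2a (0.96), Gm12371 (0.95), and Nwd2 (0.91). Among the receptors themselves, the highest value was between Grm4 and Grm5 (0.82) and the lowest between Grm3 and Grm5 (-0.18). The 2 group II genes had a value of 0.12.

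Within the excitatory neurons of the PFC, the annotation names superficial layer (SL) and deep layer (DL) subtypes by a leading gene. Grm2 was highest in SL-Cux2 neurons, with 35.1, 59.0, 26.6, and 49.5 CPM, followed by DL-Etv1 neurons with 24.3, 30.7, 19.9, and 39.0 CPM. SL-Cux2 was above DL-Etv1 in 4 of 4 libraries, although their ranges overlapped. DL-Foxp2 neurons were lowest with 1.94, 5.24, 4.77, and 2.57 CPM. Grm3 was also highest in SL-Cux2 neurons (71.1 ± 26.7 CPM) and ranged down to 28.0 ± 13.3 CPM in SL-Myh7 neurons (SD, n = 4 libraries), with overlapping ranges between all neighbors in that order.

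The group III genes had other orders. Grm8 had its highest means in the deep layers, with 56.4, 29.9, 31.8, and 38.5 CPM in DL-Foxp2 and 52.6, 25.7, 18.8, and 34.3 CPM in DL-Etv1 neurons, and its lowest in SL-Cux2 (15.0 ± 4.74 CPM) and SL-Myh7 neurons (6.35 ± 5.20 CPM). DL-Nnat (25.0 ± 5.04 CPM) and DL-Tshz2 neurons (24.0 ± 10.3 CPM) lay between, and the library ranges of both, like that of DL-Etv1, overlapped with the range of SL-Cux2. The mean of DL-Pou3f1 neurons was higher still, 59.2 ± 26.7 CPM, but that subtype held 62 cells and 22 UMIs of Grm8. Grm7 was between 56.2 and 75.5 CPM in the means of 6 subtypes and 25.0 ± 7.84 CPM in DL-Foxp2 neurons. Grm4 was highest in DL-Tshz2 neurons, with 24.3, 34.2, 9.24, and 13.2 CPM from 29 UMIs in all (SD, n = 4 libraries for each mean). Grm5 was highest in DL-Tshz2 (418 ± 20.4 CPM) and SL-Myh7 neurons (413 ± 29.5 CPM), which did not differ beyond their spread. It was lowest in DL-Foxp2 neurons, at 149, 158, 169, and 154 CPM, below every library of every other subtype. Thus DL-Foxp2 neurons had the lowest mean of Grm2, Grm5, and Grm7 and the second highest of Grm8.

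**Figure D2:**
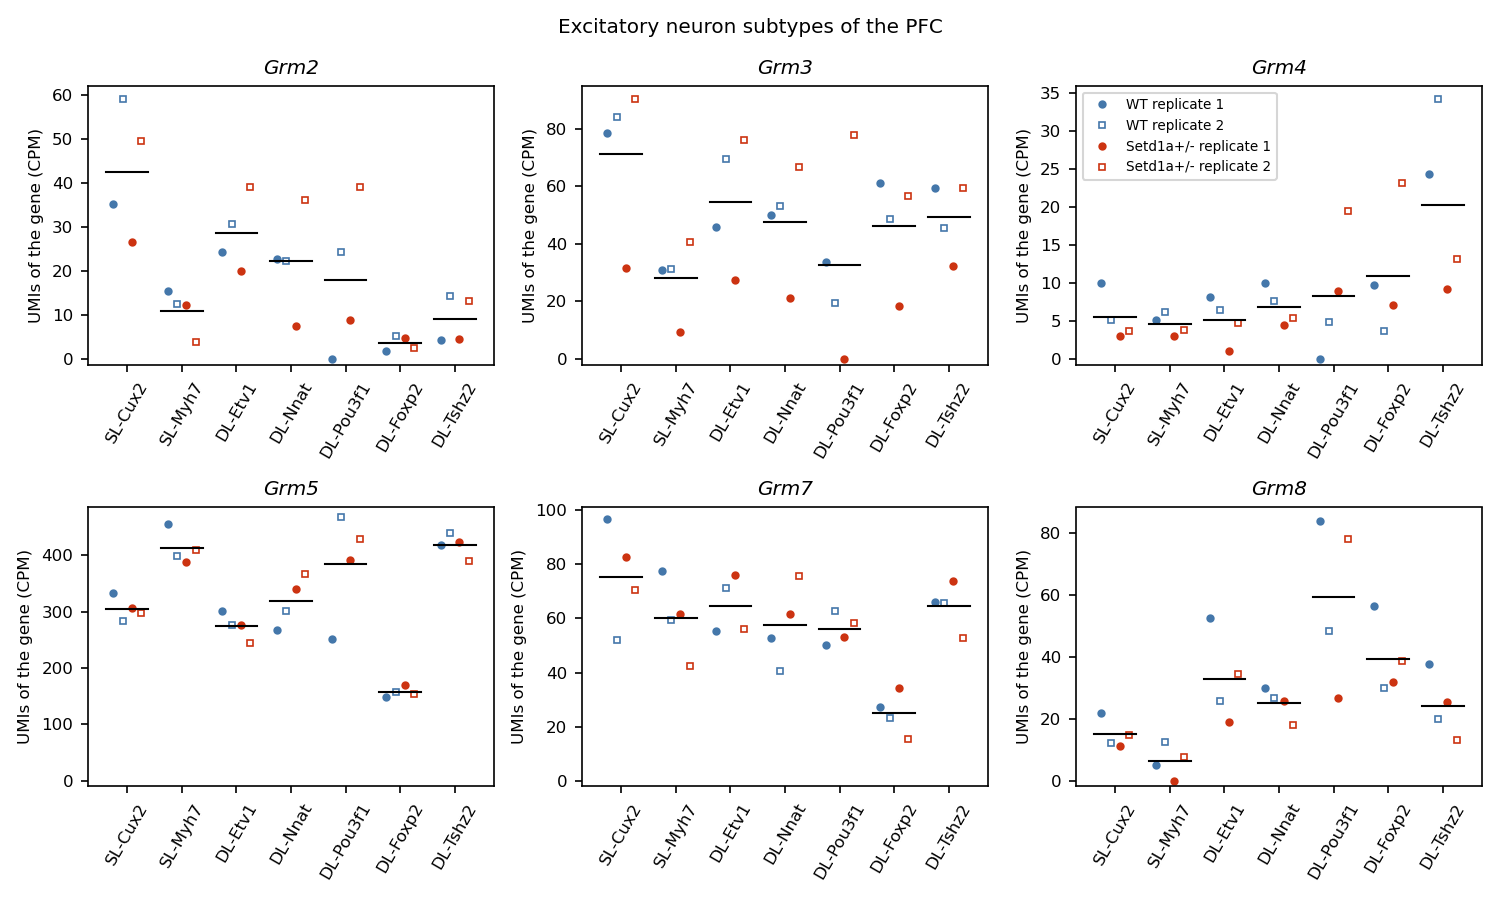
Level of each receptor gene (CPM, linear axis) in the excitatory neuron subtypes of the PFC. Points are libraries (blue, WT; red, Setd1a+/-; circles, replicate 1; open squares, replicate 2) and bars are means of 4 libraries. DL-Foxp2 neurons are low for Grm2, Grm5, and Grm7 and high for Grm8, and Grm2 and Grm3 peak in SL-Cux2 neurons.

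To test differences between cell types of the same libraries, UMIs were summed by type and library and compared with edgeR's quasi-likelihood test with the library as a block. A gene was called at a false discovery rate (FDR, Benjamini-Hochberg over all genes tested in a comparison) under 0.05 and a fold change (FC) above 1.5. The types were drawn by clustering these same cells, which makes many genes differ, so each count is read against the share of all genes called. A member enters where its UMIs passed the filter on low counts, which can be through the type where it is high. Between PFC excitatory neurons and interneurons, 25.6% of all genes and 4 of 6 receptors were called, each higher in excitatory neurons. These were Grm2, Grm3 (log2 FC 2.74, standard error 0.30, FDR 5.34e-11), Grm8 (2.80, 0.42, FDR 1.78e-07), and Grm7 (0.86, 0.20, FDR 0.000504). Grm2 had an FDR of 7.08e-09, and its fold is the bound given above. Interneurons held 12 UMIs of Grm3 and 6 of Grm8, too few to fix the size of these differences, and Grm2, Grm3, and Grm8 passed the filter through excitatory neurons, so the count of 4 is a description. Grm5 had a log2 FC of -0.18 (0.09, FDR 0.117) and Grm4 of 0.69 (0.58, FDR 0.390).

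Between SL-Cux2 and DL-Foxp2 neurons, 19.3% of all genes were called, and so were 5 of 5 receptors tested. Grm2 was higher in SL-Cux2 neurons (log2 FC 3.35, standard error 0.28, FDR 3.21e-11), but passed the filter through them and rested on 19 UMIs in DL-Foxp2 neurons, too few to fix the size. The other 4 receptors were over the filter's cutoff in all 4 libraries of both subtypes. Grm7 was 2.72-fold higher in SL-Cux2 neurons (1.44, 0.17, FDR 4.03e-08), Grm5 1.89-fold (0.92, 0.10, FDR 2.34e-09), and Grm3 1.56-fold (0.64, 0.15, FDR 0.00124). Grm8 was 2.61-fold higher in DL-Foxp2 neurons (-1.39, 0.22, FDR 5.67e-06). The call of Grm3 was lost with DESeq2 (FDR 0.0704), without the library block (FDR 0.335), and without the PFC WT replicate 2 library, where the FDR was 0.0422 and the log2 FC of 0.56 fell under the cutoff. The other calls were kept under these alternatives.

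In the glia, Grm3 and Grm5 were in opposite positions. Between astrocytes and OPCs, Grm3 was higher in astrocytes in the PFC (log2 FC 5.36, standard error 0.26, FDR 1.49e-14) and in the striatum (4.63, 0.29, FDR 3.69e-11), and Grm5 was higher in OPCs (-2.79, 0.30, FDR 3.18e-08 and -1.93, 0.30, FDR 1.67e-05). Between OPCs and oligodendrocytes, Grm3 was higher in oligodendrocytes (-4.48, 0.26, FDR 3.30e-12 in the PFC and -4.09, 0.25, FDR 5.96e-16 in the striatum) and Grm5 higher in OPCs (3.26, 0.27, FDR 9.09e-10 and 2.57, 0.20, FDR 4.08e-13). The types where these genes were low held few UMIs, with 15 of Grm3 in the OPCs of each tissue and 17 of Grm5 in PFC astrocytes, too few to fix the size of the differences. Grm5 had 35 UMIs in PFC oligodendrocytes, 54 in striatal astrocytes, and 80 in striatal oligodendrocytes. Both receptors tested were called in each of these 4 comparisons, a count given as a description because each passed the filter through the type where it was high, and the share of all genes called was 42.7% and 41.9% for astrocytes against OPCs and 49.9% and 50.4% for OPCs against oligodendrocytes, in the PFC and the striatum. The other 4 receptors did not pass edgeR's filter in these glia. DESeq2, run without that filter, called Grm3 and Grm5 and no other receptor in each comparison. By default it leaves genes with low counts without an FDR, so it does not show that the other receptors were alike.

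D1 and D2 MSNs did not pass both cutoffs in any of the 4 receptors tested, and 4.48% of all genes did. Grm5 was 1.11-fold higher in D2 MSNs (log2 FC -0.15, standard error 0.04), with an FDR of 0.00336 but under the FC cutoff. The values were -0.37 (0.14, FDR 0.0684) for Grm3, -0.18 (0.11, FDR 0.343) for Grm4, and 0.06 (0.09, FDR 0.809) for Grm7. At an unadjusted p under 0.05, edgeR found Grm3 and Grm5, where 2357 of 10425 genes were under that p. DESeq2 called 0 receptors in this comparison.

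**Figure D3:**
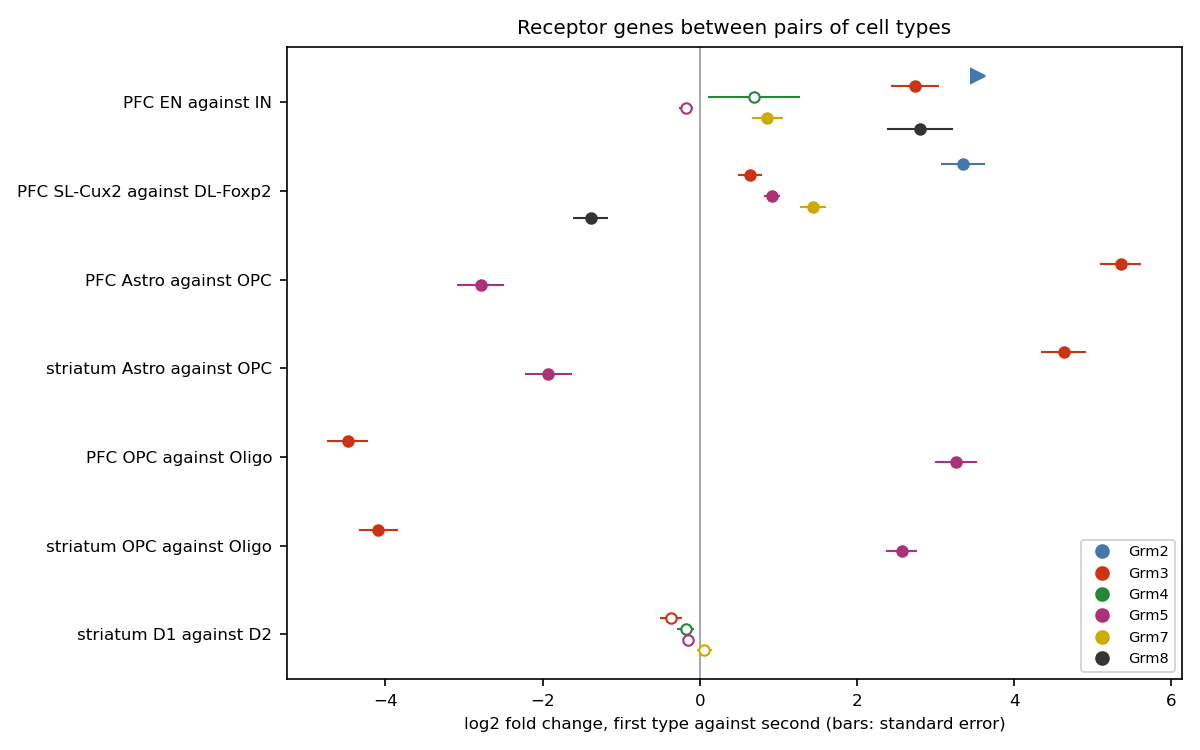
Log2 fold change of each receptor gene between pairs of cell types of the same libraries, positive where the first type is higher, with bars for the standard error. Filled points passed both cutoffs and open points did not, and the arrowhead of Grm2 is a lower bound of 3.54 because interneurons held 0 UMIs. Grm3 and Grm5 lie on opposite sides of 0 in the 4 comparisons of glia.

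The signalling list holds 36 genes of receptor scaffolds, the Gq and Gi/o pathways, and receptor desensitization. Its genes, like the receptors, could pass the filter on low counts through the type where they were high. The UMIs of list genes in the lower type are not given. The counts of list genes called between cell types, and the sizes of their differences, are thus a description. Between excitatory neurons and interneurons, 7 of 32 list genes tested were higher in excitatory neurons and 5 higher in interneurons (median log2 FC 0.17, against 0.01 over all genes), in a comparison where 25.6% of all genes were called. The largest was Elfn1, a synaptic adhesion protein that binds group III receptors across the cleft, higher in interneurons (log2 FC -4.43, standard error 0.23, FDR 3.46e-23). Grip1, a scaffold, was also higher in interneurons (-1.71, 0.19), and Prkcb, a protein kinase C (1.80, 0.10), and Adcy9, an adenylyl cyclase (1.57, 0.41), were higher in excitatory neurons.

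Between SL-Cux2 and DL-Foxp2 neurons, 3 of 32 list genes were higher in SL-Cux2 and 8 higher in DL-Foxp2 neurons (median -0.09, against -0.01 over all genes), where 19.3% of all genes were called. The adenylyl cyclases moved in both directions, with Adcy8 higher in SL-Cux2 (log2 FC 2.18, standard error 0.40) and Adcy9 (-1.83, 0.26) and Adcy1 (-1.69, 0.09) higher in DL-Foxp2 neurons. Plcb4, a phospholipase C of the Gq pathway, was also higher in DL-Foxp2 neurons (-1.78, 0.13), the subtype in which Grm5 was lowest.

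In the oligodendrocyte lineage of the PFC, 6 of 19 list genes were higher in OPCs and 3 higher in oligodendrocytes (median 0.15, against 0.00), and in the striatum 10 of 21 and 3 (0.44, against 0.09). Of all genes, 49.9% were called in the PFC and 50.4% in the striatum. Elfn1 (log2 FC 5.50, standard error 0.51 in the PFC and 8.10, 0.64 in the striatum) and Elfn2 (2.50, 0.29 and 3.59, 0.28) were higher in OPCs in both tissues. Both could enter through OPCs, and without their UMIs in oligodendrocytes the size of these differences is not fixed. Gnai1, an inhibitory G protein, was higher in oligodendrocytes (-2.98, 0.21 and -3.05, 0.21). Between astrocytes and OPCs, 3 list genes were higher in astrocytes and 3 in OPCs of 12 tested in the PFC (median 0.11, against -0.06 over all genes), and 7 and 5 of 22 in the striatum (0.01, against -0.05). Of all genes, 42.7% and 41.9% were called in these comparisons. Between D1 and D2 MSNs, 6 of 29 list genes were called, all higher in D1 (median 0.05, against -0.00), where 4.48% of all genes were called. The largest were Adcy2 (2.91, 0.31), Grk3, a receptor kinase (1.17, 0.36), and Shank1 (0.97, 0.13). The list was chosen with earlier results of these data known, so its counts beside the shares of all genes are a description.

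Next, the tissues were compared within the 7 cell types annotated in both, with genotype in the model. Each library holds one tissue, so tissue and library preparation cannot be told apart. Of 10 pairs of receptor and cell type tested, 2 were called, against 6.63% of all genes over these types. Both were Grm5, higher in striatal than in PFC endothelial cells (log2 FC 3.84, standard error 0.49, FDR 0.000938), where 6.06% of genes were called, and in microglia (3.08, 0.54, FDR 0.00309), where 21.4% were. Grm5 was counted at 33.8, 58.5, 38.0, and 63.7 CPM in striatal endothelial cells against 0.501, 9.28, 3.00, and 4.82 CPM in those of the PFC. In microglia it was 147, 253, 93.7, and 179 CPM against 5.32, 48.7, 20.3, and 14.6 CPM. The PFC levels rested on 1, 7, 4, and 2 UMIs in endothelial cells and on 3, 9, 2, and 3 UMIs in microglia, too few to fix the size of either difference. The gene passed the filter on low counts through the 4 striatal libraries, with 1 of 4 PFC libraries over the cutoff in each type, so the count of 2 is a description.

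Grm5 was also higher in the free RNA of the striatum than in that of the PFC. In empty droplets, Grm5 was at 209, 263, 173, and 280 CPM in the striatum and at 101, 138, 142, and 141 CPM in the PFC. Relative to the empty droplets of the same library, Grm5 was 54.2 to 96.5% in striatal microglia and 16.2 to 22.8% in striatal endothelial cells. In the PFC it was 5.25 to 35.3% in microglia and 0.494 to 6.72% in endothelial cells, ranges that did not overlap with those of the striatum. The 2 excitatory markers were at 0 to 13.8% and 0 to 4.42% in these PFC cells. In the striatum, of the 6 marker genes of MSNs (Drd1, Tac1, and Pdyn of D1, and Drd2, Adora2a, and Penk of D2), 6 of 6 were found in both cell types. They were at 6.67 to 74.5% of their levels in empty droplets in microglia, and at 3.00 to 30.8% in endothelial cells, where Adora2a, which endothelium also expresses, was the highest at 22.2 to 30.8%. These ranges overlapped with those of Grm5. In endothelial cells Grm5 was above every MSN marker in 1 of 4 libraries, and in 3 of 4 with Adora2a left out. The summed level of the 3 D1 markers was 696 to 1014 CPM in striatal and 0 to 3.55 CPM in PFC microglia, and 76.0 to 406 CPM in striatal endothelial cells with 0 in those of the PFC. The 2 markers of excitatory neurons summed to 10.6 to 53.7 CPM in PFC microglia and 4.01 to 26.5 CPM in PFC endothelial cells. The part of free RNA in these Grm5 differences was not tested.

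OPCs had another pattern. In the striatum Grm5 was at 51.0 to 76.5% of its level in empty droplets while the 6 MSN markers were at 0 to 23.9%, and in the PFC it was at 72.3 to 129% while the 2 excitatory markers were at 0.764 to 9.69%. In striatal OPCs Grm5 thus lay above every MSN marker in 4 of 4 libraries, and in striatal microglia in 2 of 4, or 3 of 4 with Adora2a left out.

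**Figure D4:**
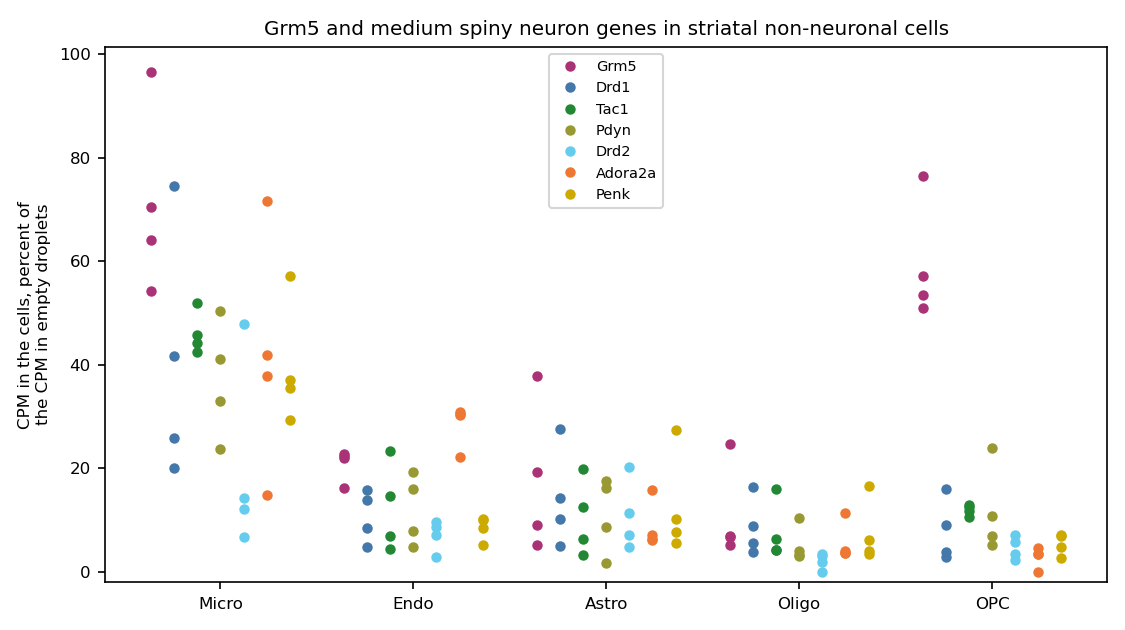
Grm5 and 6 marker genes of MSNs in non-neuronal cells of the striatum, as a percent of the level of the same gene in empty droplets of the same library (linear axis). Points are the 4 striatal libraries. In OPCs Grm5 lies at 51.0 to 76.5% and the MSN markers at 0 to 23.9%, and in microglia and endothelial cells the ranges of Grm5 and the markers overlap. Astro, astrocytes; Oligo, oligodendrocytes; Micro, microglia; Endo, endothelial cells.

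The other 8 pairs did not pass edgeR's test. DESeq2 called 3 pairs, both of Grm5 and Grm4 in endothelial cells, which did not pass edgeR's filter and had 25 UMIs in the striatum and 0 in the PFC. Grm5 in OPCs had a log2 FC of 0.04 (standard error 0.20, FDR 0.964, striatum against PFC) and in interneurons of -0.17 (0.16, FDR 0.554). Grm3 was lower in striatal astrocytes by a log2 FC of -0.83 (0.30, FDR 0.0884), a difference that did not pass, but was called without the Setd1a+/- replicate 1 library of the PFC (-1.04, 0.24, FDR 0.0144) and without the filter on low counts (-0.80, 0.26, FDR 0.0276). In oligodendrocytes Grm3 had a log2 FC of -0.31 (0.28, FDR 0.599). Of the signalling list, 19 of 119 pairs of gene and cell type were called, against 6.63% of all genes. There were 0 of 23 in OPCs, 0 of 15 in oligodendrocytes, and 0 of 8 in newly formed oligodendrocytes. Of all genes in these types, 12 of 7612, 187 of 6918, and 2 of 3015 were called. In interneurons, 6 of 30 list genes tested were higher in the striatum and 3 in the PFC, where 11.8% of all genes were called. The excitatory markers in the striatal group, which summed to at most 23.9 CPM in PFC interneurons, were not tested for their part in these counts. Elfn1 was lower in the striatum (-3.05, 0.22), and Adcy5 (1.55, 0.32), Gnaz (1.29, 0.22), and Shank1 (1.19, 0.33) were higher. In microglia 6 of 11 were called, all higher in the striatum (median log2 FC 1.13, against -0.03 over all genes, 21.4% of them called), with Adcy5, the main adenylyl cyclase of MSNs, at 5.11 (0.55), Ncdn at 3.85 (0.59), Homer1 at 2.67 (0.55), and Itpr1 at 2.03 (0.43). In endothelial cells, where 6.06% of all genes were called, 3 of 22 were called, Ncdn (3.12, 0.53), Adcy5 (2.78, 0.38), and Gnao1 (1.93, 0.29), and in astrocytes 1 of 10, Gnai2, with 10.4% of all genes called, each higher in the striatum. The sums of D1 markers given above were also higher in striatal than in PFC microglia and endothelial cells, and the part of free RNA in these list counts was not tested. In the fits between genotypes, 5 list genes passed the filter on low counts in PFC microglia and 12 in striatal microglia. The numbers were 18 and 26 in endothelial cells. Of the 12 scaffolds and partners, which include Ncdn and Homer1, 0 passed it in PFC microglia. Genes could thus enter through the striatum, so these counts and the sizes of the differences are a description.

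Finally, the genotypes were compared. With 2 libraries per genotype, edgeR called 0 of 36 pairs of receptor and cell type, 13 in the PFC and 23 in the striatum, and 0 of 26 pairs of receptor and excitatory subtype. For these calls the FC cutoff was 1.5 in the PFC and 2 in the striatum, at the same FDR. Of all genes tested, 0% were called over PFC cell types, 0.00544% over striatal cell types, and 0% over excitatory subtypes. DESeq2 called 0 receptors too. At an unadjusted p under 0.05 there was 1 receptor, Grm7 in striatal oligodendrocytes (log2 FC -1.58, standard error 0.74, FDR 1.000), where it had at most 9.57 CPM. Log2 FCs ranged from -1.58 to 0.57 over cell types, with 21 below 0 and 15 above, and their median of -0.08 stood beside 0.00 over all genes. For the subtypes the range was -0.73 to 1.01. The replicate block raised the calls over all genes from 4 to 105 in cell types and from 0 to 11 in subtypes, but called 0 receptors. In the signalling list 0 of 326 tests over cell types and 0 of 171 over subtypes were called, with 3 and 2 at an unadjusted p under 0.05. Over all genes, 2791 of 124624 tests in cell types and 715 of 44783 in subtypes were under that p, beside the 1 of 36 receptor pairs.

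In the cell types where each receptor was highest, no difference passed the test, although the genotypes did not overlap in some. Groups of 2 libraries can lie apart without a genotype effect, and the share of all genes that did was not counted. The cases given here and below are thus a description. Grm5 had a log2 FC of -0.18 (standard error 0.25) in PFC interneurons, where both Setd1a+/- libraries (293 and 295 CPM) were under both WT libraries (320 and 351 CPM), and of 0.05 (0.15) in D2 MSNs, where the groups overlapped. Grm2 had a log2 FC of 0.01 (0.49) in excitatory neurons, where the replicates differed more than the genotypes. Grm4 was 42.2 and 38.4 CPM in WT against 32.8 and 31.2 CPM in Setd1a+/- D2 MSNs, groups that did not overlap, with a log2 FC of -0.28 (0.20, FDR 1.000). Grm7 had a log2 FC of 0.21 (0.18) in excitatory neurons and -0.09 (0.19) in D1 MSNs. Grm8 had -0.49 (0.28) in excitatory neurons, where both Setd1a+/- libraries were under both WT libraries by as little as 23.6 against 23.8 CPM, and -0.61 (0.50) in striatal interneurons, where the groups did not overlap either. All of these had an FDR of 1.000. The excitatory markers in the striatal interneuron group were also lower in both Setd1a+/- libraries, with sums of 229 and 257 CPM against 352 and 312 CPM in WT, and their part in the Grm8 difference was not tested.

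In the excitatory subtypes where they were highest, the log2 FCs were -0.36 (standard error 0.43) for Grm2, -0.40 (0.45) for Grm3, and 0.11 (0.32) for Grm7, all in SL-Cux2 neurons, and -0.08 (0.26) for Grm5 in DL-Tshz2 neurons. Grm4 in DL-Tshz2 neurons was 24.3 and 34.2 CPM in WT against 9.24 and 13.2 CPM in Setd1a+/- mice, without overlap, but from 11, 12, 4, and 2 UMIs it did not pass the filter on low counts. Fitted without that filter, its log2 FC was -1.43 (0.69, FDR 0.988). DL-Pou3f1 neurons, where the mean of Grm8 was highest, had 7 and 8 cells in 2 of the libraries and were not fitted.

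Grm3 was low in a single library. In the Setd1a+/- replicate 1 library of the PFC it was at 27.7% of the mean of the other 3 libraries in astrocytes, 33.6% in oligodendrocytes, and 37.9% in excitatory neurons, and between 27.0 and 58.9% in the 6 excitatory subtypes with at least 10 cells in every library. In these 3 types and 6 subtypes it was the lowest of the 4 libraries. Empty droplets of that library held 9.76 CPM of Grm3, against 27.9, 28.1, and 29.9 CPM in the other libraries of the PFC. The UMIs behind the low values were 8 in astrocytes, 31 in oligodendrocytes, and 110 in excitatory neurons. The Setd1a+/- replicate 2 library had 236 CPM in astrocytes and 69.8 CPM in excitatory neurons, within or above the WT values. In oligodendrocytes it had 100 CPM, under both WT libraries (134 and 118 CPM), so the genotypes did not overlap there.

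The genotype values of Grm3 moved when this library was left out. With all 4 libraries, the log2 FC was -0.57 (standard error 0.44, FDR 1.000) in astrocytes, -0.80 (0.42, FDR 1.000) in oligodendrocytes, and -0.30 (0.51, FDR 1.000) in excitatory neurons. Without the Setd1a+/- replicate 1 library it was -0.05 (0.38, FDR 1.000) in astrocytes, -0.25 (0.31, FDR 0.999) in oligodendrocytes, 0.31 (0.26, FDR 1.000) in excitatory neurons, and 0.20 (0.36, FDR 1.000) in SL-Cux2 neurons, where it was -0.40 with all libraries. The direction in oligodendrocytes was thus kept. Without the Setd1a+/- replicate 2 library, which leaves the low library alone in its group, Grm3 was called lower in astrocytes (-2.02, 0.53, FDR 0.0215) and in SL-Cux2 neurons (-1.41, 0.39, FDR 0.0212), but not in oligodendrocytes (-1.65, 0.35, FDR 0.538) or excitatory neurons (-1.34, 0.28, FDR 0.308). In the striatum, where astrocytes held 146 and 139 CPM of Grm3 in WT, against 128 and 53.1 CPM in Setd1a+/- mice (log2 FC -0.45, 0.38, FDR 0.933), the low value belonged to the replicate 2 library, which held 31 astrocytes.

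In a search chosen after seeing the data, 12 of 2749 genes with at least 10 UMIs in each of the other libraries lay at least 2-fold under the lowest of them in excitatory neurons, astrocytes, and oligodendrocytes at once in the Setd1a+/- replicate 1 library of the PFC. Besides Grm3 these were Atp5k, Ndufa3, Bola2, Dhcr7, Os9, Pet100, Rps29, Akap8l, Rps28, Gm42418, and AC149090.1. The same search found 0 of 1543 to 1583 genes for each of the other 3 libraries, but the searches were not alike in depth. The Setd1a+/- replicate 1 library had the fewest UMIs in PFC astrocytes (117031, against up to 414386), so more genes were eligible in its search, and the part of depth in the count of 12 was not tested. The genes beside Grm3 on chromosome 5 were not low with it. In excitatory neurons 11 neighboring genes were at 0.712 to 1.36 times the mean of the other libraries. The cause of the low Grm3 was not tested.

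**Figure D5:**
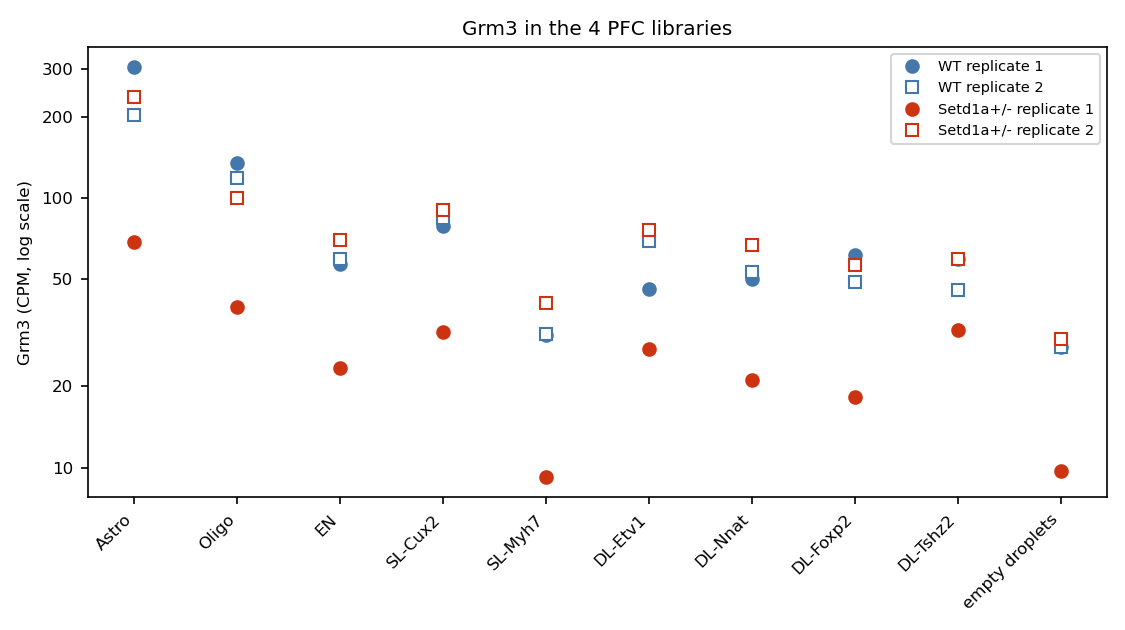
Level of Grm3 (CPM, log axis) in the 4 PFC libraries, in 3 cell types, in 6 excitatory neuron subtypes, and in empty droplets. Blue, WT; red, Setd1a+/-; circles, replicate 1; open squares, replicate 2. The Setd1a+/- replicate 1 library is lowest in every column, with 68.4 CPM in astrocytes and 9.76 CPM in empty droplets, while the Setd1a+/- replicate 2 library lies among or near the WT libraries. Astro, astrocytes; Oligo, oligodendrocytes; EN, excitatory neurons.

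Whether a genotype effect differed between the tissues was tested as an interaction in the 7 shared cell types. Of 12 pairs of receptor and cell type, 0 were called by edgeR and 0 by DESeq2, and 0% of all genes were called. At an unadjusted p under 0.05 there were 1103 of 49915 tests over all genes and 0 of the 12 pairs. The interaction log2 values ranged from -1.15, for Grm5 in newly formed oligodendrocytes (standard error 1.37), to 1.05, for Grm3 in endothelial cells (0.62), and all had an FDR of 1.000.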

How the data were processed

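The data are 8 single-cell RNA sequencing libraries. The authors made a UMI count matrix of each with Cell Ranger 3.0.2 (build mm10, from the submitters' processing notes). The deposited counts are raw whole numbers for all droplets. The authors' annotation of cells, made with Seurat 3.2.0 per the same notes, gave the cell types. The deposited gene-by-cell tables were not used here, because their rows hold numbers in place of gene names. Gene positions are from GENCODE. Cells were taken as annotated, with no doublet caller run here.

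The members and lists were chosen with earlier results of these data known. UMIs of annotated cells were summed by type or subtype and library (at least 10 cells in every library) and tested with edgeR 4.0.16 (TMM, filterByExpr with a minimum count of 10, quasi-likelihood test) in R 4.3.3. DESeq2 1.42.0, RLE factors, no filter, blocks, and leaving out each library were alternatives. The genotype fits of PFC excitatory neurons and D1 MSNs and the tissue fit of astrocytes were tested on simulated counts. These covered genes with a mean of at least 10 UMIs and held no replicate effect. Fits of other types, subtypes, contrasts, and interactions were not simulated. Estimates lay near the true values, but with 2 libraries per genotype some differences planted in PFC excitatory neurons were not called. The lack of receptor calls between genotypes thus does not show that their levels were alike. Levels are CPM. Shares of cells carry 95% Wilson intervals, and a count of 0 allows 3 counts. Receptor genes were named in all cases, up to 4 called list genes per comparison by the largest change, and 3 genes most like each receptor, of which those of Grm7, and 1 marker of excitatory neurons, are not reported here. The search for other genes low in a single library and the levels relative to empty droplets were chosen after seeing the data. Shares were also taken after thinning to 1000 UMIs. Python 3.11.15, numpy 2.4.6, pandas 2.3.3, and scipy 1.17.1 were used.

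Per the methods, a biological replicate consists of a WT and a Setd1a+/- library. Libraries with the same number in the labels were taken as pairs only in the replicate block, an alternative. The main fits between genotypes did not use the pairs. Deviations of the replicates from their genotype's mean correlated between genotypes across genes, by a median of 0.34 over PFC cell types (0.13 to 0.60) and 0.18 over striatal cell types (0.06 to 0.40). Library totals were 15154268 to 26277553 UMIs, and the number of UMIs limits the precision for genes with few of them. Libraries are pools of 2 mice, and p-values between genotypes or tissues measure the spread between these pools. In the contrasts of cell types, with the library as a block, they measure how the difference between the types varied across libraries.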

Additional observations from a re-analysis of the deposited data

Results flagged for a closer look

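Grm5 in interneurons was singled out because the genotypes lay apart in opposite directions in the tissues. It was 1 of 2 such pairs among 42 pairs of receptor and shared cell type, of which 12 were tested. The other was Grm7 in microglia, where the WT libraries of the PFC held 0 UMIs and the Setd1a+/- libraries 10.1 and 4.88 CPM, from 2 UMIs in all. In the striatum the WT libraries had 37.8 and 17.2 CPM against 8.93 and 14.9 CPM, and the difference between the tissues was not tested. For Grm5 in interneurons of the PFC, both Setd1a+/- libraries (293 and 295 CPM) were under both WT libraries (320 and 351 CPM), and in the striatum both Setd1a+/- libraries (321 and 292 CPM) were above both WT libraries (226 and 267 CPM). The markers of excitatory neurons in the striatal interneuron group summed to 229 and 257 CPM in Setd1a+/- and to 352 and 312 CPM in WT libraries, and their part in the Grm5 difference was not tested. The interaction was 0.52 on the log2 scale (standard error 0.30, FDR 1.000 from edgeR), so the difference did not pass the test. Groups of 2 libraries are too small to test for a library that stands apart. Such groups can also lie apart without a genotype effect. The share of all genes with this pattern was not counted, so the count of 2 among 42 pairs is a description.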

How the results depend on the processing

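The counts of receptor calls did not change with RLE factors in any of the 5 families of tests. Without a filter on low counts, 5 pairs of receptor and cell type rather than 2 were called between tissues, the others being Grm3 in astrocytes, Grm4 in endothelial cells, and Grm7 in microglia, and DESeq2 called 3. Leaving out libraries gave 0 to 1 receptors called between genotypes in cell types and 0 to 1 in subtypes, where the 1 was Grm3 without the Setd1a+/- replicate 2 library of the PFC. Over all genes, calls between genotypes in cell types rose from 4 to 105 with the replicate block, to 173 without a filter, and to 29 to 402 when libraries were left out (402 without the Setd1a+/- replicate 1 library of the striatum). Calls in subtypes rose from 0 to 11, 28, and 7 to 306 (306 without the Setd1a+/- replicate 2 library of the PFC). Those between tissues went from 2837 to 6957 without a filter and to 1638 to 3989 when libraries were left out, and interactions from 0 to 26 and 0 to 4. The replicate block changed no receptor call. The causes were not tested. Where a library was left out of a group of 2, the lone library was assumed to vary like the other groups. The highest cell type was the same in 12 of 12 pairs of receptor and tissue under both other scalings of CPM. Low UMI counts limit Grm2, Grm4, and Grm8 outside their main cell types, and most receptors in glia could not be tested.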
